A study of Mus musculus with 9 samples.

Results

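The genes described here make cholesterol, control its supply and carry it in lipoproteins. They are 34 genes chosen by symbol for these functions, of 27434 named genes and 75794 features in the table. The list holds 17 enzymes of sterol synthesis, 4 regulators of that pathway, 3 genes of cholesterol transport and esterification, 3 exporters, 4 apolipoproteins and 3 genes of lipoprotein uptake. The 9 libraries were made from polyadenylated nuclear RNA of livers of male CD1 mice, an outbred stock. The AAV8-STAT5ca group (5 libraries) had received 2e11 genome copies of an adeno-associated virus of serotype 8 that carries constitutively active STAT5b, and 2 of its libraries were taken 4 weeks and 3 were taken 6 weeks after injection. The control group (4 libraries) had received vehicle without virus, with 2 libraries at each time. At 4 weeks after injection the mice of both groups were aged 11 to 12 weeks, and at 6 weeks they were aged 13 to 14 weeks. Effects of the virus itself and of STAT5ca cannot be told apart, since the controls received no virus. The serotype has high specificity for hepatocytes per the labels, and STAT5b is the transcription factor through which growth hormone acts on liver genes.

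Hepatocytes build cholesterol from acetyl-CoA through mevalonate, isoprenoid units, squalene and lanosterol. The transcription factor SREBP2, encoded by Srebf2, drives the enzymes of this route. Its escort protein SCAP carries it out of the endoplasmic reticulum when sterols are scarce, and the INSIG proteins hold both back when sterols are plentiful. Cholesterol leaves the hepatocyte into bile, into high-density lipoprotein (HDL) or in lipoproteins built on apolipoprotein B, and returns through receptors on its surface.

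The table gives 1 value per group in RPKM (reads scaled by exon length and by library size), so no spread between libraries can be given for a gene. Every RPKM value below is the authors' group value, with both times pooled, and a gene is called where the authors' deposited table has an adjusted p under 0.05. In bulk RNA, fewer cells of a type and less RNA per cell cannot be told apart. Library totals behind the values, read from the lowest RPKM values, ranged from 11823873 to 14863490 reads in the AAV8-STAT5ca group and from 9489045 to 13144589 reads in the control group. The Stat5b gene stood at 14.8 RPKM in AAV8-STAT5ca livers and 15.8 RPKM in control livers (the authors' deposited table gave adjusted p = 1), so its level does not check the labels. The hepatocyte markers Alb, Ttr, Fah, Tat, Cps1 and Asgr1 were all present, at 208 RPKM or more in AAV8-STAT5ca and 185 RPKM or more in control livers. Of these 6, Alb, which encodes albumin, rose, with 14666 RPKM in AAV8-STAT5ca and 4563 RPKM in control livers (by the authors' deposited table it was 3.13-fold higher, with adjusted p = 0.000151), and the other 5 were not called. Of 5 cholangiocyte markers 1 rose and 1 fell, with a summed level of 76.4 RPKM in AAV8-STAT5ca and 16.9 RPKM in control livers. Spp1 made up most of that sum, with 73.0 RPKM in AAV8-STAT5ca and 12.8 RPKM in control livers, and the other 4 lay between 0.545 and 1.20 RPKM in AAV8-STAT5ca and between 0.434 and 2.42 RPKM in control livers. Of 5 lymphocyte markers 0 were called, with a sum of 21.2 RPKM in AAV8-STAT5ca and 12.6 RPKM in control livers.

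Promoter sequences are shown for 5 members, from the RefSeq promoters of build GRCm38.p6, which is not the mm9 build of the table. Each is the 250 bases before the annotated start, and 28 of the 34 members matched an entry. Idi1 is shown as the synthesis gene that was called, with Cyp51 and Lss as synthesis genes whose folds lay in opposite directions without passing the threshold. In these 3, capitals mark CCAAT on either strand, the sequence bound by NF-Y, a factor that works with SREBP2 at sterol genes.
Idi1, chr13:8885356-8885605, plus strand: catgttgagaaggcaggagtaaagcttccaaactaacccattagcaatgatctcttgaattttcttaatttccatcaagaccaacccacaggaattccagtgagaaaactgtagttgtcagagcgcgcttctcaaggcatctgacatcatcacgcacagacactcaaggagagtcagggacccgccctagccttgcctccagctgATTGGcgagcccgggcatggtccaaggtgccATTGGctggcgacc
Cyp51, chr5:4104698-4104947, minus strand: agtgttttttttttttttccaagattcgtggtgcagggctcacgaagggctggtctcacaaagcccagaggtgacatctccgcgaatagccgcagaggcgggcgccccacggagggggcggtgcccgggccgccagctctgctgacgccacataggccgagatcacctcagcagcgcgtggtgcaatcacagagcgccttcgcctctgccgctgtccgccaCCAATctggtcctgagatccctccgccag
Lss, chr10:76531355-76531604, plus strand: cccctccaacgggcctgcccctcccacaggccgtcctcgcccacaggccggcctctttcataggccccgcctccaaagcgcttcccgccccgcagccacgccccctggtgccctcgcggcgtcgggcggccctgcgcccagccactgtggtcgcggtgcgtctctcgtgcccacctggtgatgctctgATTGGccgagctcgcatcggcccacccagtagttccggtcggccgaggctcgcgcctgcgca
Abcg8 and Abcg5 are shown because they lie head to head, and capitals mark the 109 bases that both windows share, read from opposite strands. RefSeq gives Abcg8 a further start 6819 bases upstream, which is not shown.
Abcg8, chr17:84682871-84683120, plus strand: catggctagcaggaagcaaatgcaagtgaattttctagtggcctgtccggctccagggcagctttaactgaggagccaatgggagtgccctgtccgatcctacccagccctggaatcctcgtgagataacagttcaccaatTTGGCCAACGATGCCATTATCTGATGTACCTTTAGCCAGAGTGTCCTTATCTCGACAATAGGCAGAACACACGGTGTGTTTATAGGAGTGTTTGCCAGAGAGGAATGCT
Abcg5, chr17:84683012-84683261, minus strand: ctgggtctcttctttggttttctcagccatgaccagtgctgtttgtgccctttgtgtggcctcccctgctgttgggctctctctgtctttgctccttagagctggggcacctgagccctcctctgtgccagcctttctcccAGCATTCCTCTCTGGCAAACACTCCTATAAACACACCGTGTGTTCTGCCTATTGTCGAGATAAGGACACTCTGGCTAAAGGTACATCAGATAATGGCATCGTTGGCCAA

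CCAAT or its reverse complement occurred in the windows of 19 of the 28 matched members, against 37.5% of the 27025 genes with a promoter entry. Among synthesis enzymes 13 of 14 had it, and among the other members 6 of 14. In Idi1 it began 45 and 14 bases before the start, in Cyp51 29 bases and in Lss 62 bases. The sequence TTCNNNGAA, the core of a STAT5 site, occurred in 2 members, Ebp and Lrp1, against 8.13% of genes. TCACNCCAC, a form of the sterol regulatory element, searched on both strands, occurred in Hmgcs1, against 1.22% of genes. Each motif was counted on its own, on both strands, whether or not its matches overlap those of another. These matches are descriptions of letters in a window, not sites of binding.

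Among the 34 genes, 2 rose (Idi1 and Apoa4) and 2 fell (Abcg8 and Scarb1). Of the 33 with a value above 0, the 4 called are 12.1%, against 10.0% of the 11699 named genes that averaged 1 RPKM or more over both groups and 5.79% of all named genes. The 2 that rose and the 2 that fell are 6.06% each, against 6.09% of the more abundant named genes higher and 3.95% lower, and 3.87% higher and 1.92% lower among all named genes. The members' share is near that background and is not a result about the list. A fold of at least 1.5 in either direction was seen for 7 of the 33 (21.2%), against 17.9% of named genes at that level. The median log2 fold was -0.02 over the 33 members and 0.02 over those 11699 genes. With the ratio of the RPKM values in place of the deposited fold, the members' median was 0.06, and over the 11699 genes that ratio lay above the fold by a median of 0.07 on the log2 scale.

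**Figure D1:**
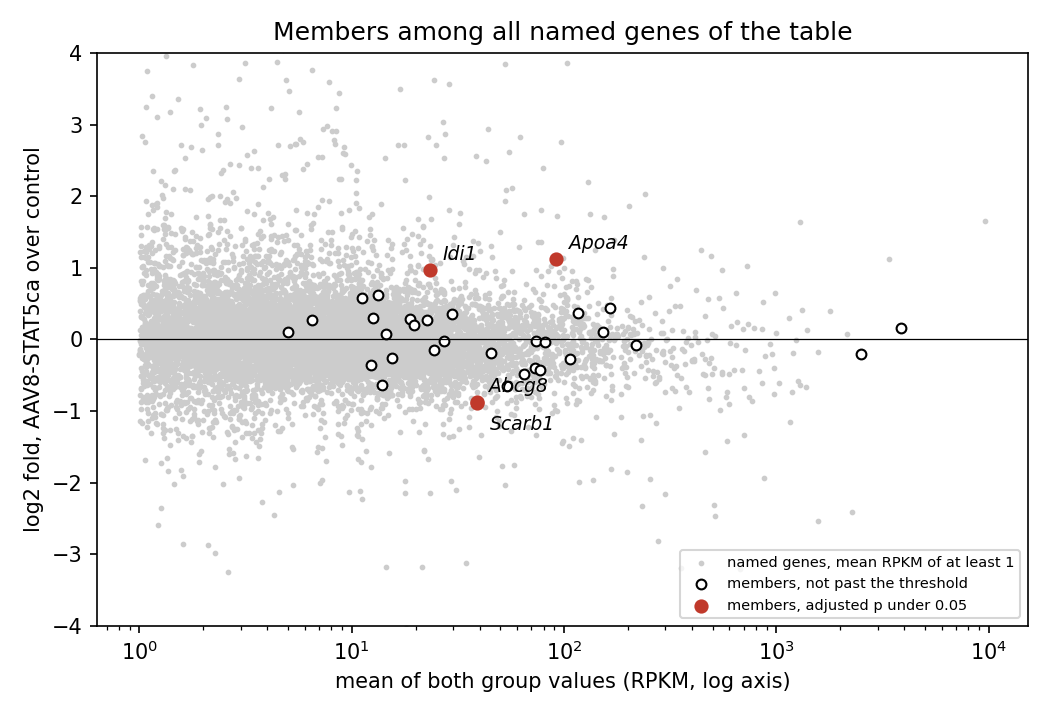
Deposited log2 fold (AAV8-STAT5ca over control) against the mean of both group values in RPKM on a log axis, for named genes that averaged 1 RPKM or more (grey) and the 33 members with a value above 0. Idi1 and Apoa4 lie above 0 and Abcg8 and Scarb1 below it, within the cloud of other genes; 60 named genes lie outside the axis limits of -4 and 4.

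Idi1 was the enzyme of the mevalonate route that changed. It encodes isopentenyl diphosphate isomerase, which interconverts both five-carbon building blocks of sterols, and lies on chromosome 13 (8884853 to 8891642, mm9). Its level was 31.6 RPKM in AAV8-STAT5ca livers and 15.3 RPKM in control livers. In the authors' deposited table this is a 1.95-fold rise (adjusted p = 0.00588). Its neighbour and paralogue Idi2 stood at 0.0311 RPKM in AAV8-STAT5ca and 0.00919 RPKM in control livers.

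The remaining mevalonate enzymes did not pass the threshold. Acat2, which joins acetyl-CoA units, had 21.2 RPKM in AAV8-STAT5ca and 16.5 RPKM in control livers. Beside it lies the paralogue Acat3 (105 RPKM in AAV8-STAT5ca and 83.6 RPKM in control livers), and reads may have been split between these genes. Mevalonate kinase, Mvk, had 11.1 RPKM in AAV8-STAT5ca and 13.4 RPKM in control livers. Phosphomevalonate kinase, Pmvk, had 21.5 RPKM in AAV8-STAT5ca and 17.8 RPKM in control livers. The decarboxylase gene Mvd had 34.2 RPKM in AAV8-STAT5ca and 25.2 RPKM in control livers. Fdps, which makes farnesyl diphosphate, was the most abundant of these enzymes, with 134 RPKM in AAV8-STAT5ca and 98.4 RPKM in control livers. Each of these 5 had an adjusted p of 1 in the authors' deposited table.

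Hmgcs1, the cytosolic HMG-CoA synthase, is listed at 0 in both groups. The table places it on an unplaced contig of chromosome 13, and all 421 features on such contigs are listed at 0 in both groups, against 31.9% of the other 27013 named genes. Its level is therefore not given by these values, and 33 members remain.

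No enzyme from squalene to cholesterol was called. Sqle, squalene epoxidase, had 16.4 RPKM in AAV8-STAT5ca and 10.2 RPKM in control livers (by the authors' deposited table it was 1.54-fold higher, with adjusted p = 0.666). Lss, lanosterol synthase, the next step, had 11.2 RPKM in AAV8-STAT5ca and 16.6 RPKM in control livers (by the authors' deposited table it was 1.56-fold lower, with adjusted p = 0.645). Cyp51, lanosterol demethylase, had 13.7 RPKM in AAV8-STAT5ca and 8.71 RPKM in control livers. These consecutive steps thus had values on opposite sides of the control level, none past the threshold. Fdft1, squalene synthase, had 25.4 RPKM in AAV8-STAT5ca and 19.9 RPKM in control livers. The sterol reductase gene Tm7sf2 had 64.2 RPKM in AAV8-STAT5ca and 80.9 RPKM in control livers. Nsdhl, which acts in removal of the C4 methyl groups, had 14.2 RPKM in AAV8-STAT5ca and 11.0 RPKM in control livers, and Hsd17b7, of the same steps, had 7.29 RPKM in AAV8-STAT5ca and 5.75 RPKM in control livers. The last enzymes lay slightly below control. Ebp, the sterol isomerase, had 43.1 RPKM in AAV8-STAT5ca and 47.2 RPKM in control livers. Sc5d, the desaturase, had 99.2 RPKM in AAV8-STAT5ca and 114 RPKM in control livers. Dhcr7, which makes cholesterol from its last precursor, had 23.6 RPKM in AAV8-STAT5ca and 25.0 RPKM in control livers. Over the 16 synthesis enzymes with a value, 10 folds lay above 1 and 6 below, with a median log2 fold of 0.27, and the smallest adjusted p besides that of Idi1 was 0.408 in the authors' deposited table.

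**Figure D2:**
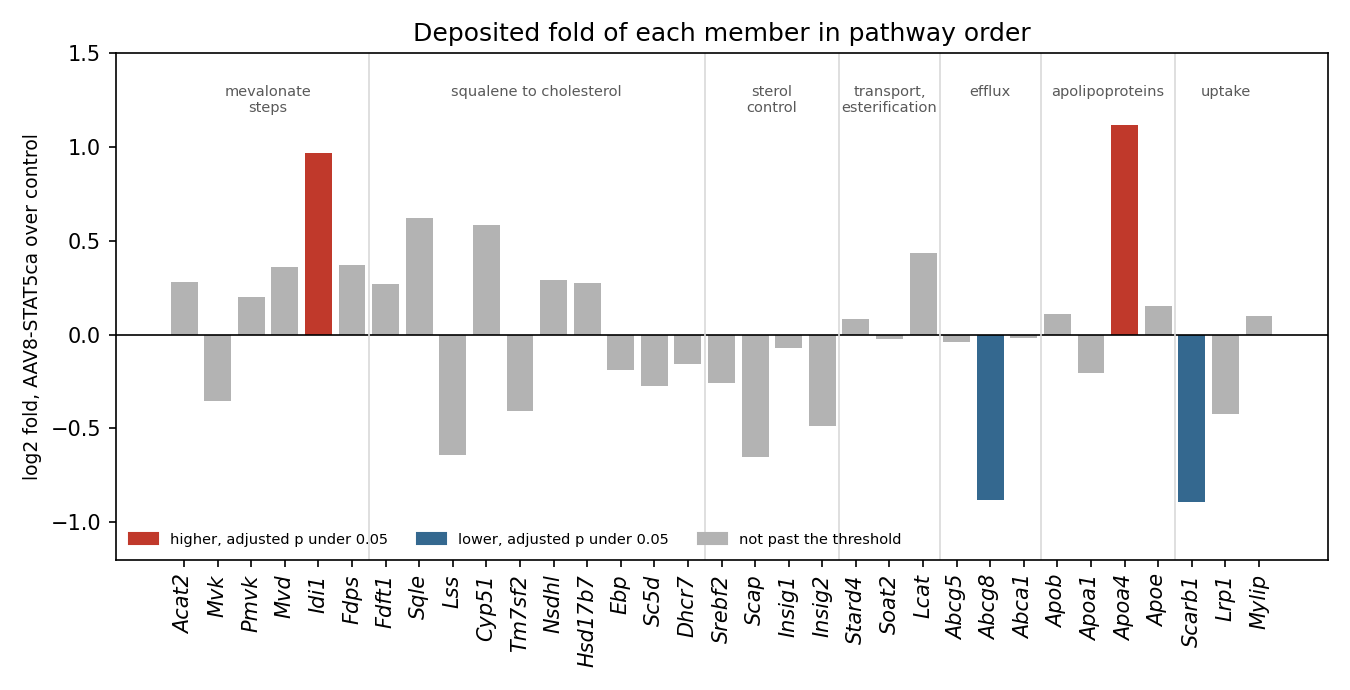
Deposited log2 fold (AAV8-STAT5ca over control) of the 33 members with a value above 0, in pathway order. Coloured bars are the 4 genes with an adjusted p under 0.05, Idi1 and Apoa4 above 0 and Abcg8 and Scarb1 below; grey bars did not pass.

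All 4 regulators had folds below 1 and none was called. Scap had 43.3 RPKM in AAV8-STAT5ca and 64.5 RPKM in control livers (by the authors' deposited table it was 1.57-fold lower, with adjusted p = 0.114). When the adjustment was redone over features averaging 0.1 RPKM or more, Scap passed (adjusted p = 0.0423). That redone adjustment assumes that the authors had adjusted over all features of the table, which is not stated. Srebf2 had 14.4 RPKM in AAV8-STAT5ca and 16.4 RPKM in control livers. The paralogues Insig1 and Insig2 stood at different levels. Insig1 had 217.1 RPKM in AAV8-STAT5ca and 217.7 RPKM in control livers (by the authors' deposited table it was 1.05-fold lower, with adjusted p = 1). Insig2 had 55.2 RPKM in AAV8-STAT5ca and 74.0 RPKM in control livers (by the authors' deposited table it was 1.40-fold lower, with adjusted p = 0.682).

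Abcg8 fell while its partner Abcg5 had nearly the same value in both groups. Both encode parts of the heterodimer that exports sterols into bile, and they neighbour each other on chromosome 17. Abcg8 (85075643 to 85099673, mm9) had 28.2 RPKM in AAV8-STAT5ca and 49.2 RPKM in control livers. In the authors' deposited table it was 1.84-fold lower (adjusted p = 0.00659). Abcg5 had 81.9 RPKM in AAV8-STAT5ca and 79.8 RPKM in control livers (by the authors' deposited table it was 1.03-fold lower, with adjusted p = 1). The difference between both responses was not tested. Their spans in the table overlap by 6709 bases, and whether exons of both genes overlap there was not examined. Without knowing whether strand was used in counting, reads of any such exons cannot be assigned to one gene. Abca1, which loads cholesterol onto HDL, had 27.7 RPKM in AAV8-STAT5ca and 26.8 RPKM in control livers. For Abcg5, Abca1 and Soat2 the deposited fold and the RPKM values lie on opposite sides of no change, at folds of 1.03 or less in the authors' deposited table.

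Scarb1, which encodes the HDL receptor SR-BI, fell. On chromosome 5 (125757458 to 125821464, mm9), it had 28.2 RPKM in AAV8-STAT5ca and 49.9 RPKM in control livers. In the authors' deposited table it was 1.85-fold lower (adjusted p = 0.00496). Lrp1, a receptor for lipoprotein remnants, had 67.2 RPKM in AAV8-STAT5ca and 85.9 RPKM in control livers (the authors' deposited table gave adjusted p = 0.288). Mylip, a ubiquitin ligase that limits lipoprotein uptake, was the faintest member with a value, at 5.30 RPKM in AAV8-STAT5ca and 4.70 RPKM in control livers. The summed levels of endothelial and stellate cell markers were also lower. Of 6 endothelial markers 1 fell and 0 rose, with a summed level of 199 RPKM in AAV8-STAT5ca and 279 RPKM in control livers. Clec4g made up most of that sum, with 116 RPKM in AAV8-STAT5ca and 165 RPKM in control livers. Of these markers, 5 had folds below 1, and Lyve1 had a fold above 1. Of 5 stellate markers 3 fell and 0 rose, with a sum of 105 RPKM in AAV8-STAT5ca and 158 RPKM in control livers. Dcn made up most of that sum, with 62.2 RPKM in AAV8-STAT5ca and 94.4 RPKM in control livers, and all 5 had folds below 1. No marker of either list was at 0, and their part in the result was not tested.

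Genes of transport and esterification were not called. Lcat, which esterifies cholesterol in plasma HDL, had 193 RPKM in AAV8-STAT5ca and 137 RPKM in control livers (the authors' deposited table gave adjusted p = 0.309). Soat2, the esterifying enzyme of hepatocytes, had 75.0 RPKM in AAV8-STAT5ca and 72.1 RPKM in control livers. Stard4, a sterol carrier, had 15.3 RPKM in AAV8-STAT5ca and 13.8 RPKM in control livers.

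**Figure D3:**
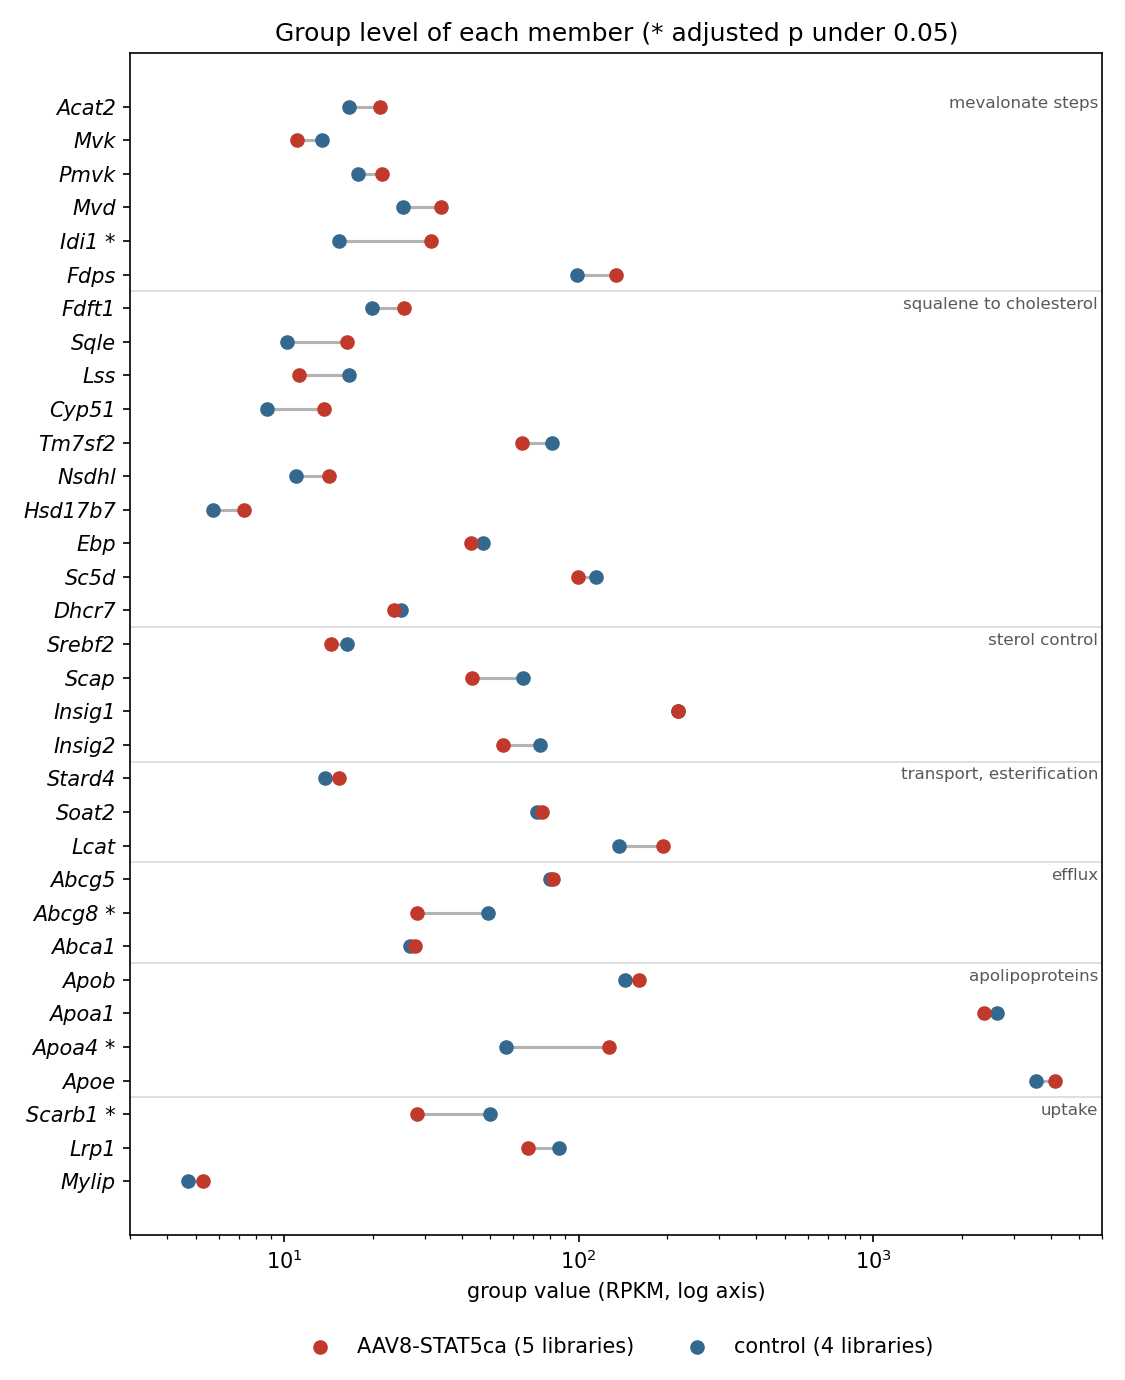
Group value in RPKM (log axis) of the 33 members with a value above 0, AAV8-STAT5ca in red and control in blue, joined by a line. Apoe and Apoa1 are the most abundant members, and the widest gaps belong to Idi1, Apoa4, Abcg8 and Scarb1, marked with an asterisk.

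Apoa4 rose, and the neighbouring apolipoprotein genes were not called. Apoa4, a component of HDL and chylomicrons, had 127 RPKM in AAV8-STAT5ca and 56.6 RPKM in control livers. In the authors' deposited table it was 2.17-fold higher (adjusted p = 0.0430), and it no longer passed at an adjusted p under 0.01. It lies on chromosome 9 (46048928 to 46051541, mm9) in a cluster that spans 43.3 kb. Apoa1, the main protein of HDL, had 2382 RPKM in AAV8-STAT5ca and 2630 RPKM in control livers. Apoc3 had 918 RPKM in AAV8-STAT5ca and 795 RPKM in control livers, and Apoa5 had 383 RPKM in AAV8-STAT5ca and 339 RPKM in control livers. These neighbours each had an adjusted p of 1 in the authors' deposited table. Apoe, a ligand for remnant uptake, ranked 3 among named genes by control level, with 4130 RPKM in AAV8-STAT5ca and 3573 RPKM in control livers. Its neighbours on chromosome 7 were not called either. Apoc1 had 1148 RPKM in AAV8-STAT5ca and 1255 RPKM in control livers, Apoc4 had 291.2 RPKM in AAV8-STAT5ca and 391.9 RPKM in control livers, and Apoc2 had 202 RPKM in AAV8-STAT5ca and 171 RPKM in control livers. The predicted gene Gm44805 shares the intervals of Apoc2 and Apoc4 in the table, so reads of these genes may have been split. Apob, the scaffold of very-low-density lipoprotein, had 160 RPKM in AAV8-STAT5ca and 143 RPKM in control livers.

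**Figure D4:**
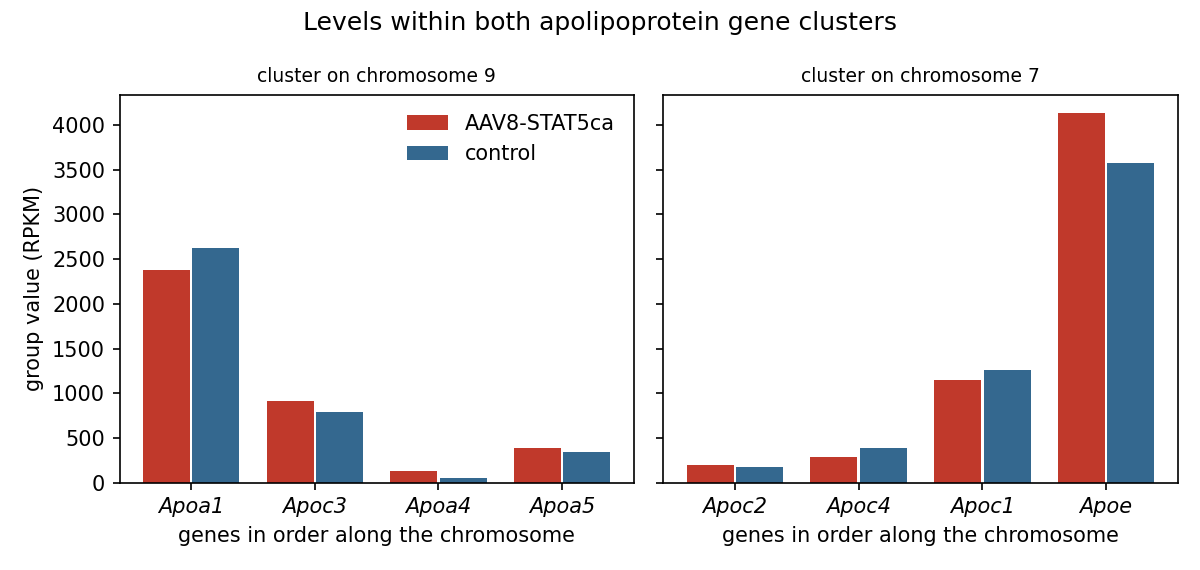
Group values in RPKM of the apolipoprotein genes on chromosomes 9 and 7, in order along each chromosome, AAV8-STAT5ca left of control. Apoa4 is the lowest of its cluster and the gene that was called; the others differ by less than 1.5-fold.

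A further 54 genes of the same pathways were counted, of which 2 rose and 2 fell. Their share of 7.41% is near the 10.0% of named genes averaging 1 RPKM or more and the 5.79% of all named genes. When the adjustment was redone as for Scap, under the same assumption, 7 were called, with Angptl8, Apobec1 and Npc2 added. Angptl8 was lower, with 173 RPKM in AAV8-STAT5ca and 368 RPKM in control livers. Apobec1 (30.6 RPKM in AAV8-STAT5ca and 19.0 RPKM in control livers) and Npc2 (17.3 and 10.7 RPKM) were higher. The share of all named genes under that adjustment was not counted, so the larger count is not a result about these genes. Tm6sf2, which acts in lipoprotein secretion, had 40.7 RPKM in AAV8-STAT5ca and 17.5 RPKM in control livers (by the authors' deposited table it was 2.23-fold higher, with adjusted p = 2.12e-05). Nceh1, a cholesterol ester hydrolase known from macrophages, had 7.71 RPKM in AAV8-STAT5ca and 3.84 RPKM in control livers (by the authors' deposited table it was 1.91-fold higher, with adjusted p = 0.000235). Of 8 macrophage markers 3 rose and 0 fell, with a sum of 377 RPKM in AAV8-STAT5ca and 201 RPKM in control livers. Cd5l (138 RPKM in AAV8-STAT5ca and 60.1 RPKM in control livers) and Clec4f (130 and 75.3 RPKM) made up most of that sum. All 8 markers had folds above 1, and none was at 0. The part of these markers in the Nceh1 result was not tested. Npc1, which exports cholesterol from lysosomes, had 19.3 RPKM in AAV8-STAT5ca and 34.4 RPKM in control livers (by the authors' deposited table it was 1.88-fold lower, with adjusted p = 0.000524). Angptl4, an inhibitor of lipoprotein lipase, had 14.7 RPKM in AAV8-STAT5ca and 27.0 RPKM in control livers (by the authors' deposited table it was 1.94-fold lower, with adjusted p = 0.0326).

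The 4 points of comparison given here were not called. Msmo1, a further synthesis enzyme, had 41.7 RPKM in AAV8-STAT5ca and 39.0 RPKM in control livers. Srebf1, which encodes the SREBP of fatty acid synthesis, had 174 RPKM in AAV8-STAT5ca and 207 RPKM in control livers. Nr1h3, the sterol sensor LXR alpha, had 46.2 RPKM in AAV8-STAT5ca and 40.2 RPKM in control livers. Mttp, which loads lipid onto apolipoprotein B, had 28.8 RPKM in AAV8-STAT5ca and 25.5 RPKM in control livers.

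Long noncoding RNA (lncRNA) features near the members were examined after their values had been seen. Within 5 kb of 25 members lay 65 such features, of which 3 rose and 3 fell (9.23%, against 2.72% of all 48360, of which 1.47% were higher and 1.25% lower). Of the 27 that averaged 0.1 RPKM or more, 2 rose and 3 fell (18.5%, against 10.6% of 10834, of which 5.46% were higher and 5.1% lower). Some of these features overlap each other. An intragenic feature between both deposited intervals of Insig1, on chromosome 5 (28399016 to 28399812, mm9), fell, with 23.9 RPKM in AAV8-STAT5ca and 67.2 RPKM in control livers (by the authors' deposited table it was 2.93-fold lower, with adjusted p = 0.00206). Insig1 itself was not called, as given above. Near Apoa1, a feature 922 bases away had 31.2 RPKM in AAV8-STAT5ca and 47.9 RPKM in control livers (by the authors' deposited table it was 1.62-fold lower, with adjusted p = 0.0278). That feature ends at 46040555 (mm9) and is nearer to Apoc3, which starts at 46041134, than to Apoa1. Another, ending 2 bases before Apoa1, had 0.302 RPKM in AAV8-STAT5ca and 0.818 RPKM in control livers (by the authors' deposited table it was 2.81-fold lower, with adjusted p = 0.00502). A feature 234 bases from Mvd had 1.52 RPKM in AAV8-STAT5ca and 0.473 RPKM in control livers (by the authors' deposited table it was 3.04-fold higher, with adjusted p = 0.000103), and a second one there had 0.170 RPKM in AAV8-STAT5ca livers and was listed at 0 in control livers. An antisense-class feature 193 bases from Hsd17b7 had 2.11 RPKM in AAV8-STAT5ca and 0.881 RPKM in control livers (by the authors' deposited table it was 2.29-fold higher, with adjusted p = 0.00892). This feature overlaps the deposited span of Ddr2 and not that of Hsd17b7.

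**Figure D5:**
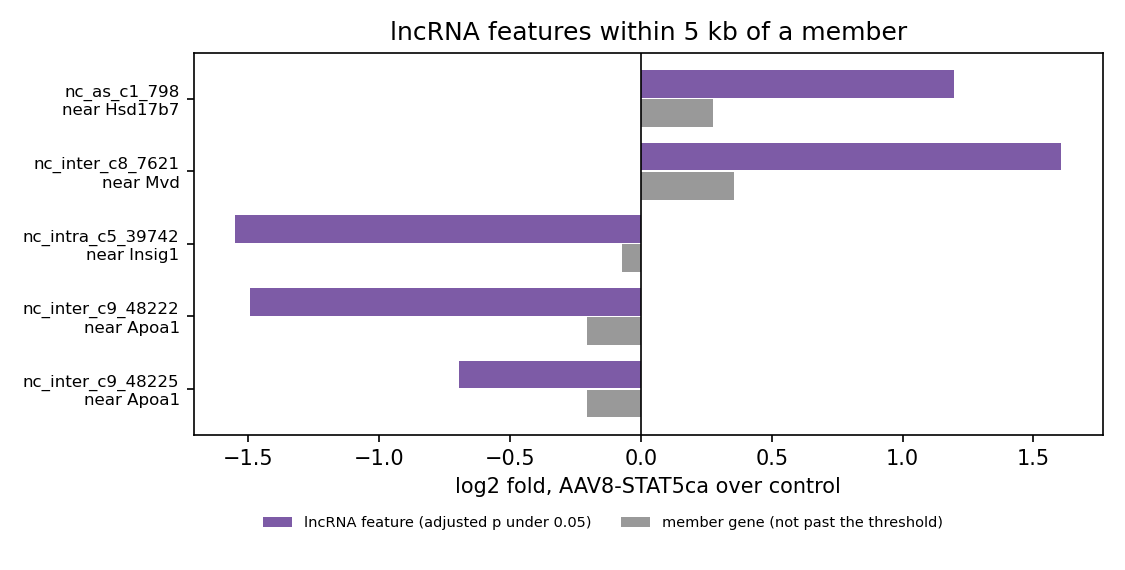
Deposited log2 fold (AAV8-STAT5ca over control) of the 5 called lncRNA features with values above 0 in both groups within 5 kb of a member (purple), and of that member (grey). The features were picked for passing the threshold and these members did not pass it, so the longer bars of the features follow from that choice.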

How the data were processed

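Nuclear polyadenylated RNA of 9 liver libraries was summarised by the authors in 1 table. Per the submitters' processing notes the tools were STAR, featureCounts and edgeR, with no version, and the build was mm9. Per the file headers, the authors deposited RPKM values per group over collapsed exons, and a p-value adjusted in edgeR. The deposited fold is a signed score, positive for AAV8-STAT5ca over control, judged from the RPKM signs. The set over which p was adjusted, any covariates and whether counting used strand are not stated there. The titles number the libraries of each group as males, but do not state outright that each is a separate mouse. If some are not, p-values may in part measure technical spread.

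Genes were matched by symbol and counted at the authors' adjusted p under 0.05. For an alternative, each p was estimated from the adjusted p and adjusted again (Benjamini-Hochberg). The estimate takes the adjusted p as a step-up adjustment over all features of the table, and is an upper bound only if that holds. Library totals were inferred from lncRNA features taken to have 1 read in 1 library, with the group value taken as a plain mean. Both calculations were tested on simulated data. The first had the adjustment made over all simulated features, and the second had plain group means and totals close to those inferred here. Neither simulation tests whether the assumptions hold for these data. Starts in the table count from 0, so 1 was added. Python 3.11.15, numpy 2.4.6 and pandas 2.3.3 were used. All members were named; other genes were named if called, or as fixed points of comparison, some of which are not reported here. Paralogues, cluster neighbours and lncRNA features were named after their values were seen. Members and lists were chosen with earlier results of these data known.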

Additional observations from a re-analysis of the deposited data

How the results depend on the processing

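With a deposited fold of at least 2, the members called became 1 (Apoa4), with 1 higher and 0 lower, and the other pathway genes called became 1 (Tm6sf2). At an adjusted p under 0.01, 1 member was higher (Idi1) and 2 were lower (Abcg8 and Scarb1). The share of all named genes at these stricter settings was not counted, so the smaller counts are not results about the members. When the adjustment was redone over features averaging 0.1 RPKM or more, or 1 RPKM or more, the other pathway genes called became 7 under each. The members called became 5, with Scap added. Both counts assume that the authors had adjusted over all features of the table. The share of all named genes under the redone adjustments was not counted, so these larger counts are not results about the genes. The medians of the members and of each role group moved by less than 0.1 on the log2 scale under either RPKM ratio. That ratio lay above the deposited fold by a median of 0.07 over named genes averaging 1 RPKM or more, and the efflux median, -0.04, was then 0.04 and that of all members 0.06. Subtracting the median of named genes shifts every value alike, and all 33 members average 1 RPKM or more, so neither alternative bears on stability. Over the single genes followed under each alternative, 8 values no longer passed and 2 newly passed (both for Scap). Angptl8, Apobec1 and Npc2, which newly passed under both redone adjustments, were not among the genes followed. Abcg5, which was not called, stood at -0.04 by the fold and 0.04 by the RPKM ratio, and Lss at -0.64 by the fold and -0.52 by the ratio with a pseudocount of 1. The lncRNA features called near members numbered 5 of 37 within 1 kb (13.5%) and 9 of 99 within 10 kb (9.09%). The share was 9.23% within 5 kb and 2.72% of all lncRNA features. These windows were chosen after seeing the data. No paired analysis was possible because the table holds 1 value per group, and leaving out each replicate was not run for the same reason. Library totals were only inferred from the lowest RPKM values, and the spread between libraries limits each call only through the authors' adjusted p.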
